A study of Homo sapiens with 12 samples.

Results

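Integrins and laminins were read here as a gene family across 2 cell lines, with and without an overexpressed long noncoding RNA. The members were all genes of the platform annotation whose symbol names an integrin alpha chain (ITGA followed by a number or letter), an integrin beta chain (ITGB followed by a digit) or a laminin chain (LAMA, LAMB or LAMC followed by a digit). The annotation held 36 such genes, and 35 of them had a probe set that names no other gene: 18 integrin alpha, 7 integrin beta and 10 laminin genes. ITGB6 had only probe sets that name several genes, so no value is given for it, and LAMA3 was not analysed here. Each member was read from its brightest single-gene probe set, the one with the highest mean log2(scaled signal + 32) over the 12 arrays. Of the 35 members, 30 reached a scaled signal of 100 on at least 3 arrays and were tested among 12715 genes. The 5 dim members were ITGA8, ITGAD, ITGAL, ITGAM and LAMA2, and they are given by their range only.

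MUM2B and OCM1 are human lines labelled as uveal melanoma, a tumour of the pigment cells of the eye. Wild type cells of each line were compared with cells overexpressing CANT1, a transcript of the CASC15 locus that shares its short name with an unrelated enzyme gene. Each of the 4 groups (MUM2B wild type, MUM2B CANT1, OCM1 wild type, OCM1 CANT1) had 3 arrays, and RNA was hybridised to Affymetrix PrimeView arrays. The replicate 1 arrays carry one growth label, under which CANT1 cells were selected with puromycin, and replicates 2 and 3 carry another, DMEM with 10% FBS for all cells. These are the 2 labelled sets. The controls are named as wild type cells and no empty vector is named, so CANT1 overexpression, vector and selection cannot be told apart. Whether a CANT1 line was a clone or a pool, and whether replicates were separate cultures, is not given in the sources used here. The p-values therefore measure only the spread between these arrays, which may be technical. In bulk RNA, fewer cells of a type and less RNA per cell cannot be told apart.

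Integrins are cell surface receptors built from 1 alpha and 1 beta chain, and the pair decides which matrix protein or cell surface ligand is bound. Inside the cell they connect through talin, kindlin and vinculin to actin, and signal through focal adhesion kinase. Laminins are trimers of an alpha, a beta and a gamma chain that form the sheet of basement membranes, and several integrins bind them. In melanoma cells the RGD-binding integrins of the alpha V group, the laminin receptors and the VCAM1 receptor have long been studied for adhesion and invasion.

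Signals are given as scaled signal, the deposited value taken out of log2 and scaled to a trimmed mean of 500 on each array. Differences are in log2(scaled signal + 32), written with their standard error (SE), and on that scale changes of dim genes are understated. A gene was called when limma's Benjamini-Hochberg adjusted p over all genes tested was under 0.05. The deposited medians were 6.85 to 6.88 log2 on replicate 1 and 6.38 to 6.45 on the other arrays, and the difference between the 3' and 5' beta-actin probe sets was 2.15 to 2.51 log2 on replicate 1 against 0.473 to 0.911. The OCM1 wild type replicate 1 array stood apart: its mean correlation with the other OCM1 arrays was 0.828, against 0.936 to 0.978 for the other 11 arrays with their own line. Its 7 pigment cell markers summed to 14220, against 75070 to 76990 on the other OCM1 wild type arrays and 75700 to 81560 with CANT1. On the MUM2B arrays this sum was 620.3 to 829.3, with MITF, SOX10, PMEL and TYR reaching 100 on every array (highest value 197.2). TYRP1 (19 to 21.8), MLANA (36.3 to 55.5) and S100B (52.1 to 97.5) were under the dim limit of 100 on every MUM2B array. All 7 markers reached 100 on every OCM1 array, although SOX10 on its wild type replicate 1 array (154.3) lay within the MUM2B range. The only probe set for CASC15 read 12.9 to 17.9 on all arrays, so it does not show the overexpressed transcript and checks no label.

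The promoters of 4 members that separate the lines are shown here first, because these genes have non-overlapping values in the 6 arrays of each line and their promoters are in the RefSeq table used. Of 7 members that meet both conditions, these 4 were chosen after the values were seen. ITGA2 and LAMB3 were higher in MUM2B, and ITGA4 and LAMA4 higher in OCM1. Each is the 250 bases before the start site in GRCh38.p14, read 5′ to 3′ on the gene's strand, with capitals marking matches to the motifs searched. For LAMB3 the outermost of 3 listed starts was used.
ITGA2, chr5:52989102-52989351 (plus strand): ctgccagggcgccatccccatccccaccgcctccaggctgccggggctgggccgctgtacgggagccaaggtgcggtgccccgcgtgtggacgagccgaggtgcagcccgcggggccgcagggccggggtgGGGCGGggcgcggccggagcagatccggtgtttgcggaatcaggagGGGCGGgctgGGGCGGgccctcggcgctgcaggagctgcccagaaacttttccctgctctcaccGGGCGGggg
LAMB3, chr1:209652426-209652675 (minus strand): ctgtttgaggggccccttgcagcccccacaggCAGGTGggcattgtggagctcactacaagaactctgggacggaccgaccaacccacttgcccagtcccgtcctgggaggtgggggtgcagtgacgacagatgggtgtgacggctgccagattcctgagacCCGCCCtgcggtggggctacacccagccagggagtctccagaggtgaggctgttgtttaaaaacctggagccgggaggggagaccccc
ITGA4, chr2:181457136-181457385 (plus strand): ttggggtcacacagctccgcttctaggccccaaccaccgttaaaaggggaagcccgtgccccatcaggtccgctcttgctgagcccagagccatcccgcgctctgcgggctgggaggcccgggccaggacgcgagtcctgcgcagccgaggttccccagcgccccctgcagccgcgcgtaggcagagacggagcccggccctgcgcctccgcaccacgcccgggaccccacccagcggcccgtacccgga
LAMA4, chr6:112254568-112254817 (minus strand): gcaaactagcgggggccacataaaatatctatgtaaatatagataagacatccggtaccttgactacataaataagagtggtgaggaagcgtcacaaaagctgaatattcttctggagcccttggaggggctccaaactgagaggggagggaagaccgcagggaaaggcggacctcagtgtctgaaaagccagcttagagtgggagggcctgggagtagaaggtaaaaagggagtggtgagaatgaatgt
The motifs were searched on both strands: TGANTCA (AP-1), CACGTG and CATGTG (E-boxes read by MITF), CATTCC (TEAD), CACCTG (the E-box of ZEB and SNAI factors), GGGCGG (GC box), CCAAT and TATAAA. The E-box forms share an outer frame and can overlap. The ITGA2 promoter had 4 GC boxes and the LAMB3 promoter 1 GC box and 1 CACCTG. The ITGA4 and LAMA4 windows held none of these motifs. Among the qualifying members not shown, ITGB1 (higher in MUM2B) had 3 GC boxes and 1 CATTCC. LAMA5 (higher in MUM2B) had 5 GC boxes and 1 CACCTG, and ITGAE (higher in OCM1) had 1 CATGTG. Of the 35 members, 24 were in the table. GC boxes were in 12 of these 24 promoters and in 42.6% of all 35116 promoters of this length. CACCTG was in 5 and in 17.5%, CATTCC in 4 and in 11.9%, CCAAT in 4 and in 32%, and CATGTG in 2 and in 9.42%. CACGTG was in 1 member and 6.34% of promoters, TATAAA in 1 and 10.7%, and TGANTCA in 0 and 6.57%.

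The first comparison asks how the 2 wild type lines differ. Wild type MUM2B cells had far more LAMB3 and ITGA3, and more ITGA2, ITGB1, ITGB2 and LAMA5. Wild type OCM1 cells had more ITGA4, LAMA1, ITGA7, LAMA4, ITGA9 and ITGAV. Over all arrays 12 of the 30 members tested were called, 6 higher and 6 lower in OCM1, a share of 40.0% where 33.0% of all genes tested were called. The member share was therefore not far from the background. The members' median difference was 0.09, against 0.06 over all genes.

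**Figure D1:**
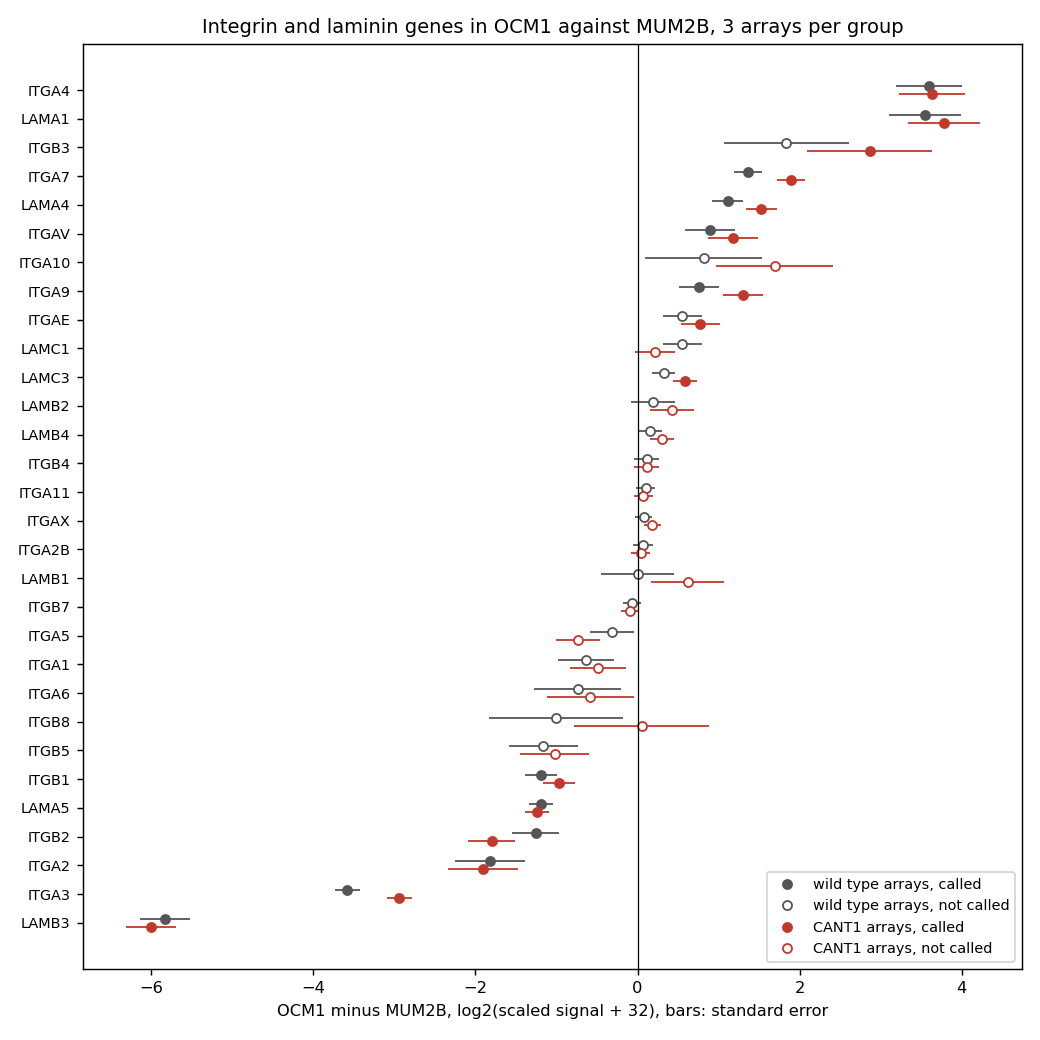
OCM1 minus MUM2B in log2(scaled signal + 32) for the 30 members tested, with 1 row per gene, points for the wild type and the CANT1 arrays (3 per group) and bars of 1 standard error. Filled points were called by limma. LAMB3 (-5.83 in wild type) and ITGA3 (-3.58) lie far to the MUM2B side, and ITGA4 (3.60) and LAMA1 (3.54) far to the OCM1 side.

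Among the alpha chains of laminin-binding integrins, ITGA3 and ITGA7 differed in opposite directions. ITGA3 read 1705, 2509 and 2441 on MUM2B wild type replicates 1, 2 and 3 and 1756, 2880 and 3494 with CANT1. ITGA3 in OCM1 read 90.5, 198 and 196 in wild type and 183, 481 and 340 with CANT1. Every MUM2B array was above every OCM1 array. The wild type difference was -3.58 ± 0.15, an 11.9-fold lower value in OCM1 (limma adjusted p = 2.81e-07), and both other measured ITGA3 probe sets were lower in OCM1 too (-1.64 and -1.55). ITGA7 gave 42.7, 48.6 and 36.0 in MUM2B wild type and 36.0, 48.5 and 38.6 with CANT1. In OCM1, ITGA7 gave 171, 125 and 189 in wild type and 200, 302 and 221 with CANT1. All 6 OCM1 values were above all 6 MUM2B values, which were all under the dim limit, and the wild type difference was 1.37 ± 0.17 (limma adjusted p = 0.000312). ITGA6, the alpha partner of ITGB4 in hemidesmosomes, was not called (-0.74 ± 0.53, limma adjusted p = 0.336). Its signal was 5095 to 10520 in MUM2B and 1014 to 5891 in OCM1, and the 1014 was the OCM1 wild type replicate 1 array.

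Of the collagen-binding alpha chains, ITGA2 was called. ITGA2 read 3337, 574 and 773 in MUM2B wild type and 1413, 1117 and 1468 with CANT1. In OCM1 it read 283, 294 and 331 in wild type and 423, 308 and 275 with CANT1. No OCM1 array reached the lowest MUM2B array, although the MUM2B wild type arrays themselves spread widely, with replicate 1 highest. The wild type difference was -1.82 ± 0.43 (limma adjusted p = 0.00991), and was not called when only the wild type arrays were fitted (adjusted p = 0.0608, range over alternatives 0.00262 to 0.0608). ITGA10 had 550, 78.0 and 61.7 in MUM2B wild type and 112, 417 and 475 in OCM1 wild type. The wild type lines therefore stood in opposite order in the 2 labelled sets, and the pooled difference was not called (0.82 ± 0.72, limma adjusted p = 0.44). With CANT1, ITGA10 had 99.3, 161 and 213 in MUM2B and 324, 772 and 697 in OCM1. There the order was the same in both sets. ITGA1 and ITGA11 were not called (-0.63 and 0.10).

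ITGA4, which binds VCAM1 and fibronectin on its partner beta chains, marked the OCM1 line. ITGA4 read 20.4, 21.4 and 20.9 on MUM2B wild type arrays and 17.1, 22.4 and 20.9 with CANT1. In OCM1, ITGA4 read 197, 1172 and 916 in wild type and 565, 654 and 626 with CANT1. The lowest OCM1 value came from the replicate 1 wild type array and was still above all MUM2B arrays, where every value was under the dim limit. The wild type difference was 3.60 ± 0.41 (limma adjusted p = 0.000159). ITGA9, a related chain that binds tenascin and osteopontin, was called at 0.75 ± 0.25 (limma adjusted p = 0.0407), but overlapped between the lines and lost the call in 11 of 23 alternatives, where the adjusted p reached 0.152. A second ITGA9 probe set, with a higher mean linear signal (298.3 against 134.3), gave 2.65 ± 0.55 (limma adjusted p = 0.00507), and 4.06 ± 0.55 in the CANT1 arrays. The size of the ITGA9 difference thus depended on the probe set.

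Of the RGD-binding alpha chains, ITGAV stood at the edge of the threshold. ITGAV, the chain of the vitronectin receptors, differed by 0.89 ± 0.31 (limma adjusted p = 0.0499) and lost the call in 20 of 24 alternatives, in which the adjusted p ran from 0.00112 to 0.173. Its ranges overlapped, 979 to 2157 in MUM2B and 1753 to 3464 in OCM1. ITGA5, the fibronectin receptor chain, was not called (-0.31 ± 0.27, limma adjusted p = 0.431). Of the chains best known from leukocytes and platelets, ITGAX (278.9 to 420.3 over all arrays) and ITGA2B (71.4 to 115) overlapped between the lines. ITGAD stayed between 28.1 and 51.3, ITGAL between 44.7 and 69.8, and ITGAM between 36.3 and 62.6. ITGA8 stayed under 100 on 11 arrays and read 143 on the OCM1 wild type replicate 1 array. ITGAE, whose product binds E-cadherin, did not overlap between the lines, but by a narrow margin: at most 2279 in MUM2B and at least 2359 in OCM1. Its wild type difference was not called (0.55 ± 0.24, limma adjusted p = 0.113). On replicates 2 and 3 it was 0.08 ± 0.10 (limma adjusted p = 0.512), and the OCM1 wild type replicate 1 array read 5139.

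Among the beta chains, ITGB1 and ITGB2 were lower in OCM1. ITGB1, the shared partner of most alpha chains, ran from 15150 to 23240 in MUM2B and from 6310 to 10170 in OCM1, a wild type difference of -1.19 ± 0.20 (limma adjusted p = 0.00145). ITGB2, the shared beta chain of leukocyte integrins, read 401, 124 and 131 in MUM2B wild type and 262, 303 and 362 with CANT1. In OCM1 it read 84.2, 51.4 and 51.0 in wild type and 79.7, 53.5 and 65.5 with CANT1. All OCM1 values were under 100, and the wild type difference was -1.26 ± 0.29 (limma adjusted p = 0.00904). The general leukocyte marker PTPRC was at 14.2 to 18.0 on every array, and 1 to 2 of 7 leukocyte markers reached 100 on every array of a group. The leukocyte marker sum was 412 to 694.8 in MUM2B wild type, 426.3 to 615.5 in MUM2B CANT1, 601.3 to 853.4 in OCM1 wild type and 770.9 to 1562 in OCM1 CANT1. The ranges of this sum overlapped between the wild type lines, and its part in the ITGB2 difference was not tested.

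ITGB3, the beta chain of the vitronectin receptor and of the platelet fibrinogen receptor, was higher on every OCM1 array except wild type replicate 1. ITGB3 read 207, 140 and 264 in MUM2B wild type and 198, 490 and 597 with CANT1. In OCM1, ITGB3 read 61.9, 2409 and 2367 in wild type and 1025, 5295 and 5139 with CANT1. Every OCM1 array of replicates 2 and 3, and the OCM1 CANT1 replicate 1 array, was above every MUM2B array. Only the OCM1 wild type replicate 1 array was below all MUM2B arrays. The difference over all wild type arrays, 1.84 ± 0.77, was not called (limma adjusted p = 0.0999). Without the OCM1 wild type replicate 1 array it was 3.00 ± 0.48 (limma adjusted p = 0.000738). Of 4 platelet markers, 1 reached 100 on every array of each group: GP9, at 135.8 to 305.6. PF4 read 90.4 to 160, and PPBP was at most 18.9 on every array. The sum of the 4 was 305.3 to 535 over all arrays, and its part in the ITGB3 values was not tested.

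The remaining beta chains were not called between the wild type lines. ITGB5 and ITGB8 pair with ITGAV. ITGB5 read 3851, 1565 and 2024 in MUM2B wild type, 2125, 2675 and 3159 in MUM2B CANT1, 525, 1365 and 1440 in OCM1 wild type, and 788, 1667 and 1572 in OCM1 CANT1. The lowest ITGB5 values were the replicate 1 arrays of OCM1, and the difference was -1.16 ± 0.42 (limma adjusted p = 0.0627). ITGB8 read 3216, 226 and 377 in MUM2B wild type, 1357, 292 and 284 in MUM2B CANT1, 135, 527 and 424 in OCM1 wild type, and 1627, 278 and 274 in OCM1 CANT1. The replicate 1 arrays were thus far above the others in 3 of the 4 groups and below them in OCM1 wild type. ITGB4 (133 to 215) and ITGB7 (75.3 to 119) overlapped between the lines.

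Among the laminin alpha chains, LAMA1 and LAMA4 were higher in OCM1 and LAMA5 was higher in MUM2B. LAMA1, the alpha chain of embryonic basement membranes, read 67.1, 95.9 and 78.2 in MUM2B wild type and 73.7, 63.1 and 71.2 with CANT1. In OCM1 it read 414, 2205 and 2183 in wild type and 1386, 1294 and 1394 with CANT1. The lines did not overlap, and the wild type difference was 3.54 ± 0.44 (limma adjusted p = 0.000273). LAMA4, found in vessel walls and around mesenchymal cells, read 369, 327 and 385 in MUM2B wild type and 466, 474 and 617 with CANT1. In OCM1, LAMA4 read 669, 894 and 908 in wild type and 1019, 2048 and 1754 with CANT1. All OCM1 arrays were above all MUM2B arrays, and the wild type difference was 1.12 ± 0.19 (limma adjusted p = 0.00188). Other LAMA4 probe sets gave 0.68 (limma adjusted p = 0.0264) and 0.39 (0.262, not called). LAMA5, a widely expressed alpha chain of adult basement membranes, read 884, 734 and 869 in MUM2B wild type and 927, 1193 and 1339 with CANT1. LAMA5 in OCM1 read 354, 318 and 360 in wild type and 398, 512 and 495 with CANT1. The 6 arrays of each line again did not overlap, and the wild type difference was -1.19 ± 0.15 (limma adjusted p = 0.000276). LAMA2, the muscle laminin chain, stayed between 28.4 and 69.6.

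LAMB3, a beta chain of epithelial basement membranes, was bright in MUM2B and dim in OCM1. LAMB3 read 8875, 3566 and 3998 in MUM2B wild type and 3836, 5477 and 6513 with CANT1. In OCM1 it read 68.4, 45.8 and 58.3 in wild type and 64.7, 41.2 and 43.2 with CANT1. All OCM1 values were under the dim limit of 100, and the wild type difference was -5.83 ± 0.31 (limma adjusted p = 9.02e-07). Its size depends on the number added before the logarithm, at -6.11 with 16 and -5.39 with 64, and on the probe set: a second LAMB3 probe set gave -2.86 ± 0.35. LAMB1 and LAMC1, chains of the most widespread laminins, were not called between the wild type lines (0.00 ± 0.45 and 0.55 ± 0.24). LAMC1 read 5242, 2189 and 2762 in MUM2B wild type, 3717, 3647 and 4165 in MUM2B CANT1, 5372, 4402 and 4282 in OCM1 wild type, and 4021, 4688 and 4685 in OCM1 CANT1. The 2 MUM2B wild type arrays of replicates 2 and 3 were the lowest of the 12, and the other LAMC1 values overlapped between the lines. LAMB2, LAMB4 and LAMC3 differed by 0.16 to 0.32 and were not called.

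Markers of other cell types also differed between the lines. The sum of 6 epithelial markers was 15040 to 23390 in MUM2B and 1560 to 2059 in OCM1, carried by KRT8 and KRT18, while EPCAM and CDH1 were under 100 on every array. Of these markers, 3 to 4 reached 100 on every array of a MUM2B group and 1 in an OCM1 group. The sum of 5 endothelial markers was 2795 to 5110 in MUM2B and 431 to 551.7 in OCM1. CDH5 alone read 2385 to 4634 in MUM2B, and TEK was at 24.0 to 40.7 on every array. The sum of 5 fibroblast markers was 438.3 to 663.4 in MUM2B and 1520 to 1744 in OCM1, leaving out the OCM1 wild type replicate 1 array, which was lower. In OCM1 it was carried by LUM, which read at most 37.4 in MUM2B and 1222 to 1437 on those 5 OCM1 arrays. FAP went the other way, at 197.9 to 379.4 in MUM2B and 33.2 to 123.7 in OCM1, and DCN was at 31.7 to 47.9 on every array. The part of these differences in the member results was not tested.

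The same line comparison in the CANT1 arrays, which are other arrays, gave 15 of 30 members called, 9 higher and 6 lower in OCM1 (against 37.2% of all genes). ITGB3 (2.86 ± 0.77), ITGAE (0.78 ± 0.24) and LAMC3 (0.59 ± 0.14) were called beside the 12 of the wild type comparison, though ITGAE lost the call in 8 of 23 alternatives and ITGB3 in 5 of 24. For ITGB3 these were the second probe set (1.93, limma adjusted p = 0.135), no labelled set term (0.0812), and the fits without MUM2B CANT1 replicate 2 (2.66, 0.0617) or 3 (2.80, 0.0524) or OCM1 CANT1 replicate 2 (2.81, 0.0526). LAMB3 differed by -6.00 ± 0.31, ITGA3 by -2.94 ± 0.15, ITGA4 by 3.63 ± 0.41 and LAMA1 by 3.78 ± 0.44. Over all 12 arrays, 11 of 30 members had no overlap between the 6 arrays of OCM1 and the 6 of MUM2B, against 23.2% of all genes. ITGA4, ITGA7, ITGAE, LAMA1 and LAMA4 lay above in OCM1, and ITGA2, ITGA3, ITGB1, ITGB2, LAMA5 and LAMB3 above in MUM2B.

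**Figure D2:**
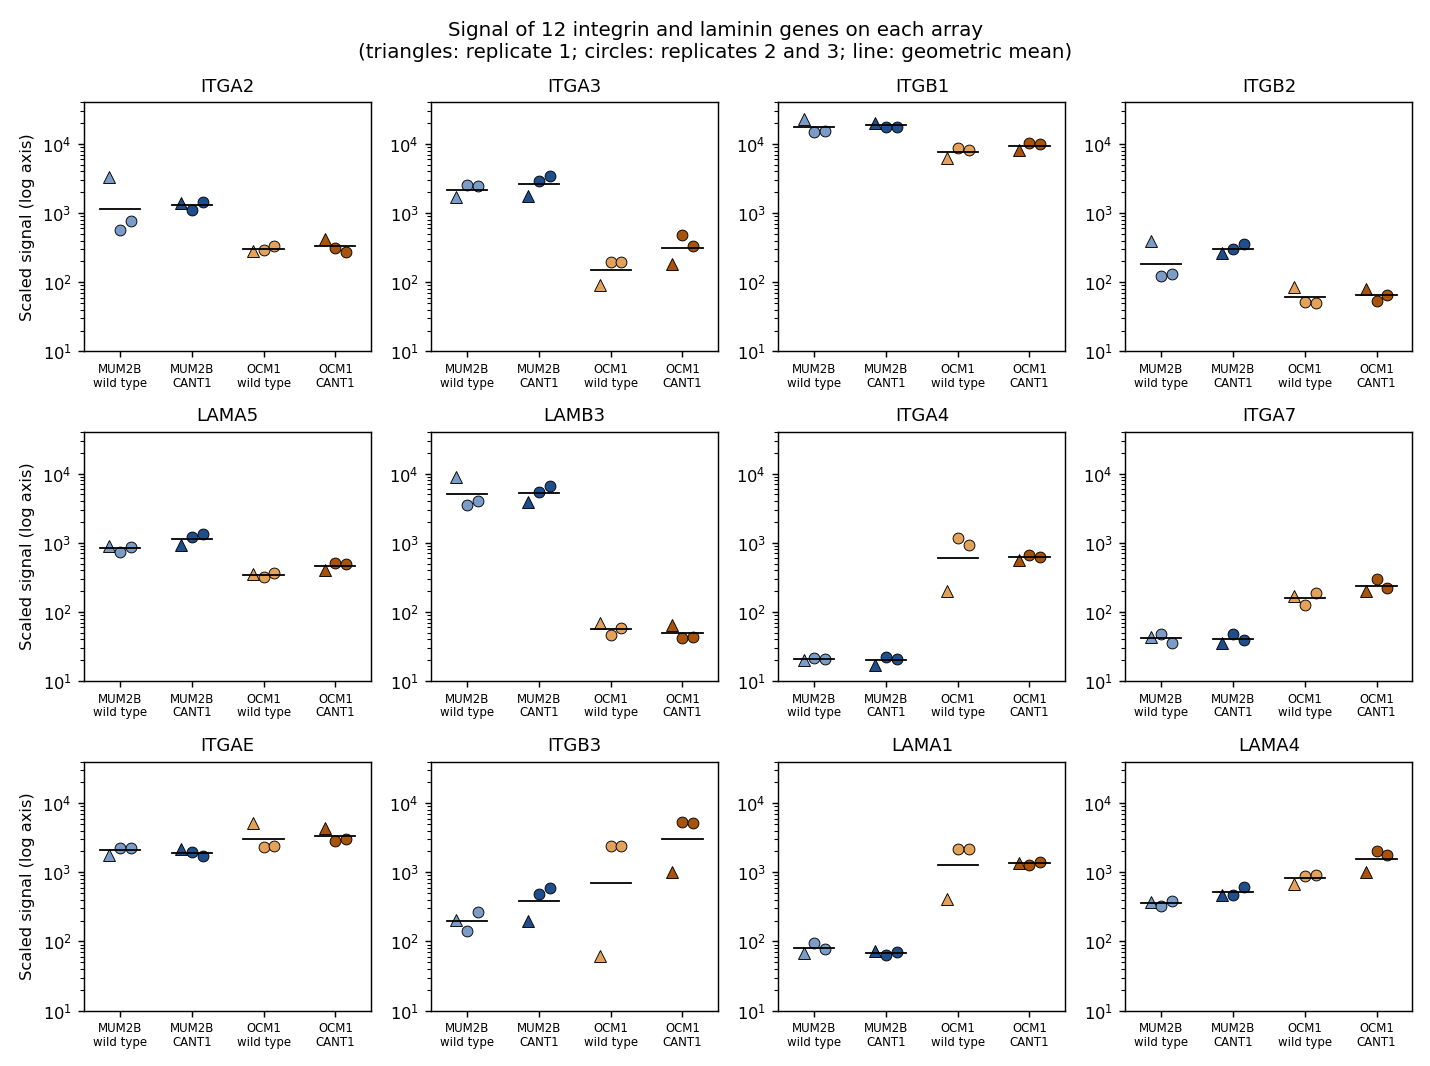
Scaled signal (log axis) of 12 members on each of the 12 arrays, with 1 panel per gene and 1 column per group; triangles are replicate 1, circles replicates 2 and 3, and lines the geometric mean of the 3 arrays. LAMB3, ITGA3 and ITGA4 separate the lines in every replicate, while the OCM1 wild type replicate 1 triangle of ITGB3 (61.9) lies below all MUM2B points.

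On replicates 2 and 3 alone, 27 members were tested among 12105 genes, and the wild type lines differed in 20 of them, 13 higher and 7 lower in OCM1. This was 74.1% of members, against 64.7% of all genes. ITGB3 (3.43 ± 0.20) and ITGA10 (2.23 ± 0.13) were called here, as were LAMB1 (0.88), LAMC1 (0.81), ITGB8 (0.64), LAMB2 (0.61), LAMC3 (0.39) and ITGB5 (-0.34). For ITGA10 a second probe set gave 0.28 and was not called. On replicate 1, with 1 array per group and no test, 13 of the 20 differences had the same sign, as did 64.1% of the genes called. ITGB3 was -1.35 there, ITGB8 -4.28, ITGA10 -2.02 and LAMB1 -1.75, all opposite to replicates 2 and 3. Leaving out the OCM1 wild type replicate 1 array from the fit of all arrays gave 13 wild type calls, the 12 above and ITGB3. The share of all genes called in that fit is not given here, so the count is not read as a result about the members.

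The second question is what CANT1 overexpression did in each line. With all arrays, no member was called in MUM2B, nor was any other gene (0% of 12715). At an unadjusted limma p under 0.05 there were 2 members and 220 genes. The members nearest to the threshold were the laminin chains LAMA5 (0.45 ± 0.15) and LAMA4 (0.48 ± 0.19), each at a limma adjusted p of 1. In OCM1, 0 of 30 members were called, while 15 genes were (0.118%). At an unadjusted limma p under 0.05 there were 5 members, all higher with CANT1, and 1177 genes. These were ITGB3 at 1.91 ± 0.77 (limma adjusted p = 0.487), ITGA3 at 0.89 ± 0.15 (0.0831), LAMA4 at 0.89 ± 0.19 (0.157), ITGA7 at 0.50 ± 0.17 (0.408) and LAMA5 at 0.41 ± 0.15 (0.431). Both other ITGA3 probe sets gave less, 0.25 and 0.16. In OCM1, 25 of 30 members had a difference above 0 and the median was 0.20, against 0.00 over all genes. This count depends on the OCM1 wild type replicate 1 array, so no general rise of the members is read from it. Without that array ITGA2 (-0.25), ITGA4 (-0.69), ITGA6 (-0.24), ITGAV (-0.01) and ITGB5 (-0.09) were below 0. So were ITGB7 (-0.02), ITGB8 (-0.78), LAMA1 (-0.67) and LAMB4 (-0.04), and the members already below 0 stayed there. Others stayed above 0, such as ITGA3 (0.86) and LAMA4 (0.87). The share of all genes above 0 is not given here. The difference between the lines in the CANT1 effect was called for 0 of 30 members and 0.0472% of all genes, with 1 member and 634 genes at an unadjusted limma p under 0.05.

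Several all-array OCM1 values rested on 1 array. With the OCM1 wild type replicate 1 array, ITGA4 differed by 0.01 ± 0.41 and LAMA1 by 0.09 ± 0.44. Without it, ITGA4 was lower with CANT1 by -0.69 ± 0.12 (limma adjusted p = 0.0363) and LAMA1 by -0.67 ± 0.13 (limma adjusted p = 0.048), and these were the 2 members called. ITGB8 went from 0.63 ± 0.83 to -0.78 ± 0.29 and ITGA6 from 0.68 ± 0.53 to -0.24 ± 0.15 without that array, and ITGB3 from 1.91 to 0.74 ± 0.48, with none of these called (limma adjusted p = 0.291, 0.59 and 0.63). Without the MUM2B wild type replicate 1 array, 1 member was called in OCM1, ITGA3 (0.89 ± 0.13, limma adjusted p = 0.0314). Without the OCM1 CANT1 replicate 1 array it was LAMA4 (1.12 ± 0.17, limma adjusted p = 0.042). In MUM2B no member was called without any single replicate 1 array. The shares of all genes called in these fits are not given here.

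In the second labelled set (replicates 2 and 3), CANT1 arrays of MUM2B had more of 11 members and less of 1. The 12 calls among 27 members tested were 44.4%, against 25.0% of all genes, and the 11 higher ones were 40.7%, against 14.4% of all genes called higher. The members' median difference was 0.29, against 0.00 over all genes. The beta chains ITGB3 (1.35 ± 0.20, limma adjusted p = 0.00117), ITGB2 (1.19 ± 0.11, limma adjusted p = 0.000147) and ITGB5 (0.70 ± 0.13, limma adjusted p = 0.00351) rose. The collagen-binding alpha chains ITGA10 (1.10 ± 0.13) and ITGA2 (0.91 ± 0.15) rose as well, with ITGA6 by 0.36 ± 0.10. Among the laminin chains LAMC1 and LAMB3 rose by 0.66 each, LAMA5 by 0.64, LAMA4 by 0.57 and LAMB1 by 0.40. ITGAE was lower, at -0.31 ± 0.10 (limma adjusted p = 0.0375), and lost the call in 8 of 18 alternatives. Leaving out 1 array ended the call of ITGA6 (any MUM2B array of this set, adjusted p up to 0.104), LAMA4 (wild type replicate 2 or CANT1 replicate 3, up to 0.11) and LAMB1 (any MUM2B array but CANT1 replicate 2, or either OCM1 CANT1 array, up to 0.308). Over all alternatives these differences stayed at 0.32 to 0.44, 0.39 to 0.75 and 0.23 to 0.56. The 5 other measured ITGB3 probe sets gave 1.16 to 1.84, whereas the second ITGA10 probe set gave 0.01.

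In the signals of MUM2B replicates 2 and 3 the groups did not overlap for these members. They were called on the same arrays, so this lack of overlap is a description and adds no support. For ITGB3 the wild type arrays were at 140 and 264 and the CANT1 arrays at 490 and 597. ITGB2 went from 124 and 131 to 303 and 362, and LAMB3 from 3566 and 3998 to 5477 and 6513. On replicate 1 the order was the reverse for most of them: LAMB3 was 8875 in wild type and 3836 with CANT1, and ITGA2 was 3337 and 1413. The replicate 1 differences of ITGB2 (-0.56), ITGB5 (-0.85), ITGA10 (-2.15), LAMC1 (-0.49) and LAMB1 (-0.75) were below 0 too, and ITGB3 was at -0.05. Only LAMA4 (0.31), LAMA5 (0.07) and ITGA6 (0.86) kept the sign, 3 of the 12 called, where 12.5% of all called genes kept it.

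**Figure D3:**
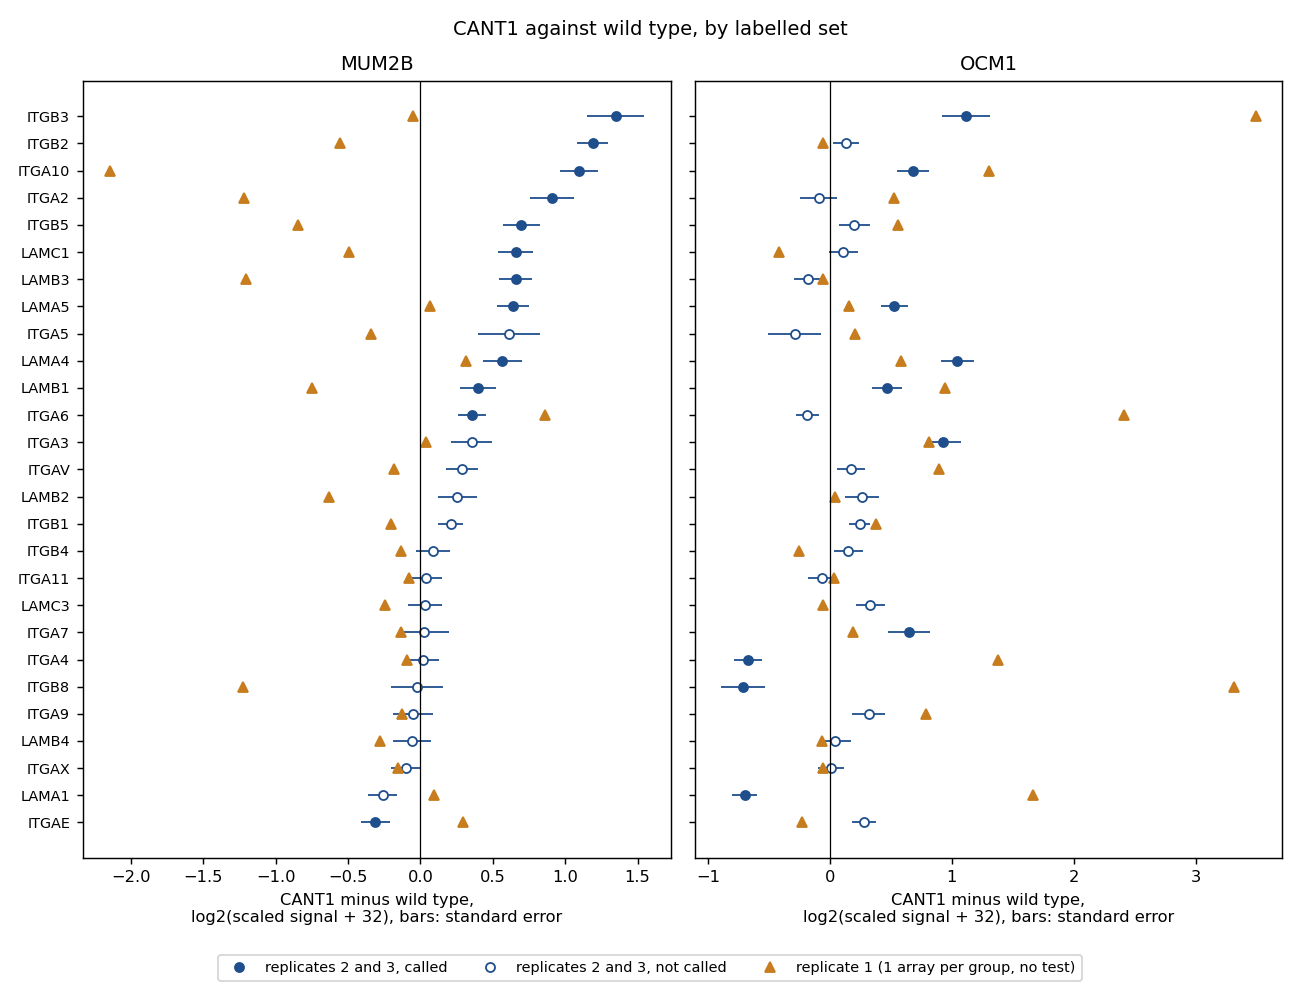
CANT1 minus wild type in log2(scaled signal + 32) for the 27 members tested on replicates 2 and 3, in MUM2B (left) and OCM1 (right). Circles with bars of 1 standard error are replicates 2 and 3 (filled where called by limma), and triangles are replicate 1, with 1 array per group. In MUM2B most called members are right of 0 on replicates 2 and 3 and left of 0 on replicate 1; in OCM1 ITGB3 is to the right in both sets.

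In OCM1 on replicates 2 and 3, 10 of 27 members were called, 7 higher and 3 lower with CANT1 (37.0%, against 23.3% of all genes). The median was 0.17, against 0.04 over all genes. ITGB3 rose by 1.12 ± 0.20 (limma adjusted p = 0.00228), from 2409 and 2367 to 5295 and 5139, and its 5 other measured probe sets gave 0.88 to 1.28. The alpha chains ITGA3 (0.93 ± 0.14, limma adjusted p = 0.00111), ITGA10 (0.68 ± 0.13) and ITGA7 (0.65 ± 0.17) rose. Other ITGA3 probe sets gave 0.35 (limma adjusted p = 0.0358) and 0.19 (0.398, not called), and a second ITGA10 probe set gave 0.13 and was not called. The laminin chains LAMA4 (1.05 ± 0.13, limma adjusted p = 0.000317), LAMA5 (0.53 ± 0.11) and LAMB1 (0.47 ± 0.13) rose, but a second LAMB1 probe set gave -0.04. Other LAMA4 probe sets gave 0.39 (limma adjusted p = 0.0418) and 0.41 (0.0917, not called). ITGA4 (-0.67 ± 0.11, limma adjusted p = 0.00192), LAMA1 (-0.70 ± 0.10, limma adjusted p = 0.000849) and ITGB8 (-0.71 ± 0.18, limma adjusted p = 0.0143) fell. Leaving out 1 array ended the call of ITGA7 (wild type or CANT1 replicate 2, limma adjusted p up to 0.173), ITGB8 (wild type replicate 2 or either CANT1 array, up to 0.113) and LAMA5 (wild type replicate 2, 0.0538). LAMB1 lost it without wild type replicate 3 or either CANT1 array. The ITGA7 difference ran from 0.40 to 0.89 over the alternatives, that of ITGB8 from -0.86 to -0.57 and that of LAMA5 from 0.45 to 0.61. For ITGA4 the signals were 1172 and 916 against 654 and 626, and for LAMA1 2205 and 2183 against 1294 and 1394.

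Replicate 1 had the same sign for 7 of these 10 members, and for 39.3% of all genes called. ITGB3 differed there by 3.49, ITGA10 by 1.31, LAMB1 by 0.94, ITGA3 by 0.81, LAMA4 by 0.58, ITGA7 by 0.19 and LAMA5 by 0.16. The 3 members that fell on replicates 2 and 3 were the exceptions, at 1.38 for ITGA4, 1.67 for LAMA1 and 3.32 for ITGB8. All of these replicate 1 values use the wild type array on which the pigment cell markers were lower as well, and its part in them was not tested.

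**Figure D4:**
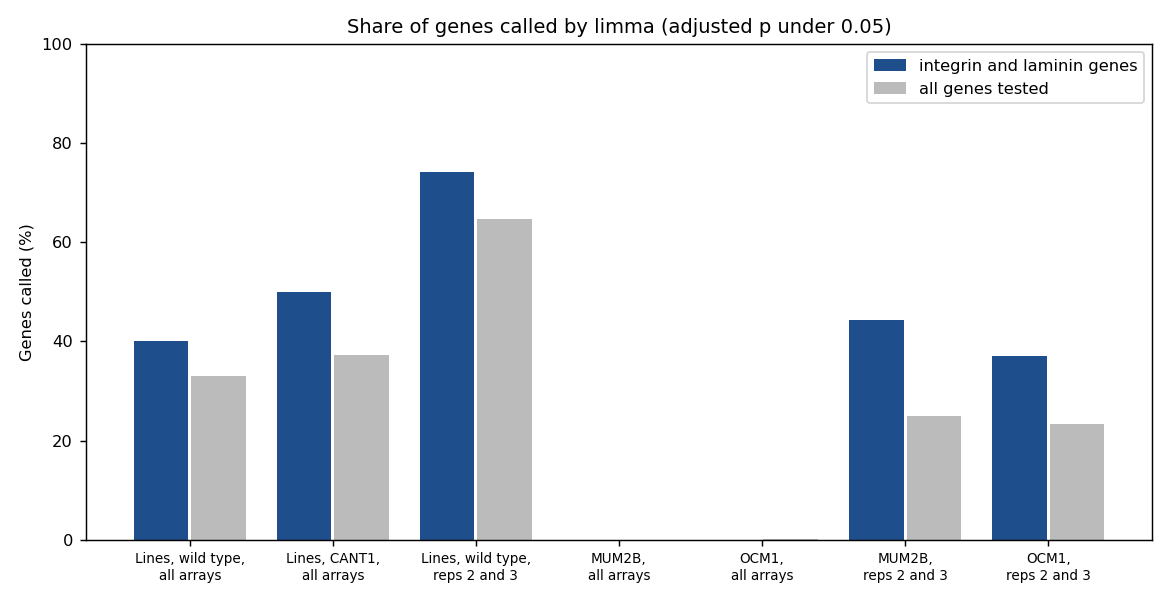
Percent of the integrin and laminin genes tested (blue) and of all genes tested (grey) that limma called in each of 7 comparisons. The members' share is above that of all genes on replicates 2 and 3 (44.4% against 25.0% in MUM2B, 37.0% against 23.3% in OCM1), and no member was called for CANT1 over all arrays.

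Tests of the difference itself compared the CANT1 effects. On replicates 2 and 3 the effect in OCM1 differed from that in MUM2B for 7 of 27 members (21.9% of all genes): it was lower for ITGB2, ITGA2, LAMB3, ITGA4, LAMC1 and ITGA6 and higher for ITGAE. The calls of LAMC1 and ITGA6 were lost in 7 and 3 of 18 alternatives, nearly all of them with 1 array left out. A second ITGA2 probe set gave -0.58 (limma adjusted p = 0.0561, not called). ITGB3, LAMA4 and LAMA5 rose in both lines, and their differences between the lines, -0.23 ± 0.28, 0.48 ± 0.19 and -0.11 ± 0.16, were not called (limma adjusted p = 0.606, 0.0903 and 0.667). Between the labelled sets, the CANT1 effect in MUM2B differed for 14 of 30 members, 12 of them lower on replicate 1 (35.8% of all genes). In OCM1 it differed for 8 of 30 members, 7 of them higher on replicate 1 (48.2% of all genes). In these fits the lone replicate 1 array of a group is assumed to vary like the others. The set difference had an all-gene median of -0.10 in OCM1, so the members' median of 0.11 there is read relative to that shift.

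Genes that work with integrins and laminins were counted from 3 lists. Of 34 tested genes of the adhesion machinery inside the cell, 1 was higher and 15 were lower in wild type OCM1 than in MUM2B (47.1%, against 33.0% of all genes and 13.9% of all genes called lower). PARVA, which joins integrin-linked kinase to actin (-2.19 ± 0.33), TGFB1I1, a paxillin relative (-2.04 ± 0.27), and CAV1 of caveolae (-1.89 ± 0.39) differed most. Without the OCM1 wild type replicate 1 array the counts were 4 higher and 15 lower, with no share of all genes given here for that fit. Between the lines in the CANT1 arrays, 1 was higher and 9 were lower in OCM1 (29.4%, below the 37.2% of all genes). On replicates 2 and 3, CANT1 gave 6 higher and 2 lower in MUM2B, led by LPXN, a leukocyte paxillin relative (1.19 ± 0.13), and 5 higher and 3 lower in OCM1, led by the kinase SRC (0.82 ± 0.14). That is 23.5% of the list in each line, which is near the 25.0% and 23.3% of all genes called. The LPXN effect in MUM2B on replicate 1 minus that on replicates 2 and 3 was -2.36 ± 0.22, opposite to its rise.

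Of 20 tested integrin ligands, 2 were higher and 8 lower in wild type OCM1 (50%, against 33.0% of all genes). The matricellular ligands CCN1 (-6.20 ± 0.31) and CCN2 (-5.83 ± 0.27) were lower and the adhesion molecule L1CAM was higher (3.39 ± 0.58). Without the OCM1 wild type replicate 1 array, 3 ligands were higher and 10 lower, again with no share of all genes given here. With CANT1 on replicates 2 and 3, 7 ligands rose and 2 fell in MUM2B, among them fibronectin FN1 (1.22 ± 0.18) and osteopontin SPP1 (-1.04 ± 0.15). In OCM1, 6 rose and 2 fell, with CCN2 at 1.25 ± 0.09, SPP1 at 0.78 ± 0.15 and FN1 at 0.75 ± 0.18. These counts are 45% and 40% of the list, where 25.0% and 23.3% of all genes were called. The FN1 effect in MUM2B on replicate 1 minus that on replicates 2 and 3 was -1.25 ± 0.32. For SPP1 in MUM2B it was 2.20 ± 0.26. Both set differences had the opposite sign to the effects on replicates 2 and 3. That of FN1 was about the size of its rise, so no reversal is read from it. That of SPP1 was larger than its fall. Of 19 tested basement membrane partners and other laminin receptors, 2 were higher and 3 lower in wild type OCM1 (26.3%, below the 33.0% of all genes). The laminin-binding netrin NTN4 was lower (-2.72 ± 0.47), and perlecan HSPG2 (2.01 ± 0.49) and syndecan SDC2 (1.95 ± 0.27) were higher. Without the OCM1 wild type replicate 1 array, 3 were higher and 6 lower, with no share of all genes given here for that fit. For the wild type lines on replicates 2 and 3, 70.6% of those tested were called, against 64.7% of all genes. In the set of replicates 2 and 3, 17 were tested: 4 rose and 0 fell in MUM2B, and 6 rose and 1 fell in OCM1, where nidogen NID1, the link between laminin and collagen sheets, rose by 2.08 ± 0.14 and syndecan SDC1 fell by 1.28. These are 23.5% in MUM2B, near the 25.0% of all genes, and 41.2% in OCM1, against 23.3%. The NID1 effect in OCM1 on replicate 1 minus that on replicates 2 and 3 was -8.68 ± 0.25, opposite to the rise and larger. That value uses the OCM1 wild type replicate 1 array. With all arrays, CANT1 gave 0 calls in each of the 3 lists in both lines.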

How the data were processed

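Total RNA of 12 samples was hybridised to Affymetrix PrimeView arrays. The authors deposited 1 value per probe set and array; MAS5 is named in the submitters' processing notes, and the values were read as log2 intensities because of their range. The base of the logarithm and any normalization are not given in the sources used here. Per array, 2 was raised to each deposited value, the signal scaled to a 2% trimmed mean of 500 over all 49395 probe sets, and log2 taken after adding 32. The factors ranged from 1.16 to 1.23 for replicate 1 arrays and from 1.62 to 1.78 for replicates 2 and 3. The number of arrays limits the precision; the median standard error was 0.183 for a difference within the fit of all arrays and 0.106 on replicates 2 and 3.

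After removal of 102 control probe sets, 44988 carried 1 gene name, 1832 more than 1 and 2473 no name; 44961 were matched by gene identifier. Each of 18132 genes was read from its brightest single-gene probe set and tested where the signal was at least 100 on 3 arrays. Tests used limma 3.58.1 in R 4.3.3 (lmFit, eBayes), with terms for the 4 groups and the labelled set (7 residual degrees of freedom), replicates 2 and 3 alone (4), or a model of 8 cells for differences between sets (4). P-values were adjusted by Benjamini-Hochberg over all genes. The code was tested on simulated data. Members, lists and tests were chosen with earlier results of these data known.

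Values per array are given for members called between the wild type lines at 4-fold or more, or for CANT1 at 1.5-fold or more, and at most 4 genes per list are named. Alternatives were other offsets (16, 64), quantile normalization, the deposited values unscaled, no filter or 200, no set term, a replicate block, an intensity trend, fewer arrays in the fit, other probe sets and each array left out; the list counts without the OCM1 wild type replicate 1 array were chosen after seeing the data. Promoter sequences are RefSeq's (GRCh38.p14).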

Additional observations from a re-analysis of the deposited data

Results flagged for a closer look

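The CANT1 effect differed between the lines or between the labelled sets for the members given here, each by a limma test of the difference itself. All values are differences of log2 effects. No group is large enough to test a single array as an outlier.

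On replicates 2 and 3, the effect in OCM1 minus that in MUM2B was -1.06 for ITGB2, -1.001 for ITGA2, -0.83 for LAMB3, -0.68 for ITGA4, -0.55 for LAMC1, -0.54 for ITGA6 and 0.59 for ITGAE. The adjusted p in limma ran from 0.00112 (ITGB2) to 0.0378 (LAMC1). With a second probe set, ITGA2 gave -0.58 and was not called (limma adjusted p = 0.0561). ITGA2, ITGB2, LAMB3, LAMC1 and ITGA6 had risen in MUM2B, while ITGA4 had fallen in OCM1.

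In MUM2B, the effect on replicate 1 minus that on replicates 2 and 3 was lower for the alpha chains ITGA10 (-3.24), ITGA2 (-2.13) and ITGA1 (-1.83). It was lower for the beta chains ITGB2 (-1.75), ITGB5 (-1.55), ITGB3 (-1.40) and ITGB8 (-1.20). Of the laminin chains it was lower for LAMB3 (-1.86), LAMC1 (-1.15), LAMB1 (-1.14), LAMB2 (-0.89) and LAMA5 (-0.58). It was higher for ITGAE (0.60) and ITGA6 (0.50). A second ITGA10 probe set gave -0.08 and a second LAMB1 probe set -0.49 (limma adjusted p = 0.855 and 0.132), neither called. LAMA5 lost the call in 4 of 17 alternatives and ITGA6 in 3 of 18.

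In OCM1, the same difference between the sets was higher for ITGB8 (4.03), ITGA6 (2.59), ITGB3 (2.38), LAMA1 (2.36), ITGA4 (2.05), ITGAV (0.72) and ITGA10 (0.63), and lower for ITGAE (-0.51). All these values use the OCM1 wild type replicate 1 array, whose pigment cell marker sum was 14220. Its part in them was not tested. Other ITGB3 probe sets gave 2.12, 0.76, 0.04, -0.57 and -0.66, of which the first was called. ITGA10 lost the call in 5 of 18 alternatives and turned direction with its second probe set (-0.19), and ITGAE lost it in 3 of 17.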

How the results depend on the processing

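Under the alternatives run, the count of called members stayed within 1.5 times its value except as given here. The second brightest probe set, which fewer members have, gave 7 of 18 (wild type lines), 8 of 18 (CANT1 lines), 5 of 15 (CANT1 in OCM1, replicates 2 and 3), 11 of 15 (wild type lines, replicates 2 and 3) and 9 of 18 (set difference in MUM2B). An intensity trend raised the calls for the difference between the lines on replicates 2 and 3 to 11, and fitting only the arrays compared gave 13 of 20 for the wild type lines there. The direction turned for the second probe sets of LAMB1 (CANT1 in OCM1, -0.0362) and ITGA10 (set difference in OCM1, -0.19). The cause was not tested.

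Leaving out each array in turn gave 10 to 17 calls for the wild type lines, 12 to 18 for the CANT1 lines and 18 to 22 for the wild type lines on replicates 2 and 3. For CANT1 over all arrays it gave 0 in MUM2B, 0 to 2 in OCM1 and 0 for their difference. On replicates 2 and 3 it gave 8 to 13 in MUM2B, 7 to 12 in OCM1 and 5 to 10 for their difference, and for the set differences 11 to 15 in MUM2B and 6 to 10 in OCM1. Member by member, 251 of 283 alternatives kept the wild type line calls and 199 of 222 the MUM2B calls on replicates 2 and 3; 172 of 185 did so in OCM1.

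The labels do not say that replicate numbers pair the arrays. Over 18 same-numbered pairs the correlation of deviations ran from 0.0293 to 0.623, 15 of them over 0.1, and 7 of 12 arrays correlated best with their own number. The deviations were taken from the mean of all arrays of a group, so they also hold the difference between the labelled sets. These correlations therefore cannot show whether replicate numbers pair the arrays. With the replicate number as a block the wild type lines gave 10 calls (ITGA9 and ITGAV were lost, at limma adjusted p = 0.0543 and 0.0721), the CANT1 lines 15, and the comparisons on replicates 2 and 3 gave 12, 10, 7 and 20. The 3 over all arrays for CANT1 gave 0. No block could be fitted to the set differences, since replicate 1 alone makes up 1 of the sets.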
